A study of Rattus norvegicus with 6 samples.

Results

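The 9 genes described here are the transcription factors Irf7, Irf9, Irf1 and Stat2, the cytosolic RNA sensors Ddx58, Ifih1 and Dhx58, and the feedback inhibitors Usp18 and Socs1. They were taken by symbol from 17321 counted genes, all 9 were present, and all 9 passed the filter on low counts that left 12276 genes. The set was put together with earlier results of the same high glucose against control comparison known, in which interferon genes were lower, so the differences between the groups are given as a description and support nothing by themselves. The data are RNA sequencing counts from islets of Sprague Dawley rat fetuses at gestational day 22. The 3 high glucose libraries are from fetuses of the left uterine horn, per the series design, which were given a 48 h infusion of 4 mg glucose per min that began on gestational day 20. The 3 libraries labelled control came from fetuses of the right, normoglycemic horn of the same 3 dams. All 6 libraries were made from islets of 2 pooled pancreata, hand picked after collagenase digestion and kept for 24 h in RPMI with 5 mM glucose, so every value is from cultured islets after that recovery.

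Every infused horn was a left horn, so treatment and side cannot be told apart. The left or right letter of the deposited alignment name contradicts that of the sample title in all 6 libraries. Groups follow the treatment labels, and the other naming would turn every direction round. Totals lay between 18077841 and 30993532 counts per library, and the 9 genes had 92 to 5350 counts each per library. The labelled tissue held its defining transcripts: Ins1, Ins2, Iapp, Gcg, Sst, Ppy and Chga summed to 6206 to 23118 normalised read counts (CPM, counts scaled to the library's TMM-adjusted total) in high glucose libraries and 14769.6 to 27504 CPM in control libraries. The connective tissue genes Col1a1, Col3a1, Pdgfra, Pdgfrb, Dcn and Lum summed to 20917 to 29839 CPM in high glucose libraries and 15227 to 35065 CPM in control libraries, so both kinds of transcript were abundant. Each pair of libraries comes from a different dam. The treatment test, which has a term for each dam, weighs the difference within dams against its variation among dams. That variation is estimated with information shared over all genes.

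Type I interferons bind a receptor whose kinases phosphorylate STAT2, which acts with IRF9 in a complex that binds the interferon-stimulated response element (ISRE), a tandem GAAA repeat, before target genes. Irf7, Stat2, Irf9, Usp18 and the 3 sensor genes are themselves targets of that complex in mouse and human cells, which gives the pathway a positive loop. The sensors bind viral or misplaced double-stranded RNA, and RIG-I and MDA5 signal through the adaptor MAVS, while USP18 and SOCS1 shut the receptor down. In human islets, interferon signatures are known from type 1 diabetes research.

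RefSeq promoter sequences (GRCr8 assembly, 250 bases before to 50 bases after the annotated start, gene strand) were matched for 6 of the 9 genes. Those that hold an interferon-type motif are shown, because they are where the regulators of this set bind in the textbook scheme. Capitals mark matches on either strand to GAAA, any 2 bases and GAAA, an ISRE-type repeat, or to TTCNNNGAA, the palindrome of gamma-activated sites (GAS).
Irf7: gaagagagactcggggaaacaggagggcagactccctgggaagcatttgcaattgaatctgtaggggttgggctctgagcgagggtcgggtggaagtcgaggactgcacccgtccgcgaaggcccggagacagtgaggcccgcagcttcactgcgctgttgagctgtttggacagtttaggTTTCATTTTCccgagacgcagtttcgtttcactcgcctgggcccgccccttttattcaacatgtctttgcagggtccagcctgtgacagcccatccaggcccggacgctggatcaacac
Ifih1: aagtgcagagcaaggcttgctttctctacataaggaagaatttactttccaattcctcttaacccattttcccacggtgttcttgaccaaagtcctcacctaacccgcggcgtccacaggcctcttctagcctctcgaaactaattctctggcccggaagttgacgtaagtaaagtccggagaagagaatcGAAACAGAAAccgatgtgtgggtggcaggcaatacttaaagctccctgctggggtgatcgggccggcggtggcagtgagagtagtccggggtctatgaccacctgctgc
Socs1: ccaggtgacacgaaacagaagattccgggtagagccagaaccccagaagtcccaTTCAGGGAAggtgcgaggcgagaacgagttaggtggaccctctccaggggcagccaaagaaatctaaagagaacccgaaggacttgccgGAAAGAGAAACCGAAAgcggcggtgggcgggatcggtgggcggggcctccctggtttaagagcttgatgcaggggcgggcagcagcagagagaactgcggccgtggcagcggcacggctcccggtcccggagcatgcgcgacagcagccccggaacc
Irf1: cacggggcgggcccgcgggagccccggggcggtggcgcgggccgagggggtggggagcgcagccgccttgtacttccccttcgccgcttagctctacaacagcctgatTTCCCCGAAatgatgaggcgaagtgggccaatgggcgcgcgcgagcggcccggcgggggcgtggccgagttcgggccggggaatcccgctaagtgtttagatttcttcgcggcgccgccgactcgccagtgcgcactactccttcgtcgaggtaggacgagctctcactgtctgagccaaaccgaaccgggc
Irf9: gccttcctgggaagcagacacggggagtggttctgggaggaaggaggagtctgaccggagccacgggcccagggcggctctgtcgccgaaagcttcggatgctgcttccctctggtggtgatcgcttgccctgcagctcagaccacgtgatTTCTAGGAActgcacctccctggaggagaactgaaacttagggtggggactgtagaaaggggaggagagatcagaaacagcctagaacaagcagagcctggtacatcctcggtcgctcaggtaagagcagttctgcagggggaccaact
These windows lie at chr1:205799974-205800273 on the minus strand for Irf7, chr3:67683919-67684218 on the minus strand for Ifih1 and chr10:5389324-5389623 on the plus strand for Socs1. Those of Irf1 and Irf9 are chr10:38417685-38417984 and chr15:33065586-33065885, both on the plus strand. The ISRE-type repeat began 69 bases before the start in Irf7, where it is on the reverse strand, and 59 bases before it in Ifih1. Socs1 held 2 overlapping ISRE-type repeats, 107 and 101 bases before its start, and a GAS-type match at 196. The GAS-type match lay 142 bases before the start in Irf1 and 99 in Irf9, and the Stat2 window held neither. The ISRE-type repeat was thus in 3 of 6 windows, against 3.92% of all 33469 promoter windows of the table, and the GAS-type palindrome in 3 of 6 against 8.87%. A match is only a match of letters, and no match says nothing of binding elsewhere.

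Irf7 (rn6, chr1:214249388-214252455, minus strand), the factor that amplifies interferon production, showed the largest difference of the 9. It measured 43.5, 26.9 and 11.3 CPM in the high glucose libraries of dams 1, 2 and 3, against 155, 167 and 29.5 CPM in their control libraries. Each high glucose library was below its own dam's control, at 0.281, 0.161 and 0.384 of it, but the groups overlapped, because the control library of dam 3 was below the high glucose library of dam 1. The group means were 27.2 ± 16.1 CPM in high glucose and 117 ± 76.0 CPM in control (SD, n = 3 each), and the fitted log2 difference was -1.95 (SE 0.25).

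Stat2 (chr7:2691369-2707151, plus strand) and Irf9 (chr15:34282936-34288139, plus strand) encode subunits of the ISRE-binding complex. Stat2 had 60.0, 57.0 and 44.9 CPM in high glucose libraries of dams 1 to 3 and 97.0, 107 and 46.2 CPM in control libraries. Irf9 had 30.5, 28.0 and 26.8 CPM in high glucose libraries and 38.8, 41.6 and 26.4 CPM in control libraries. Both were lower in high glucose in dams 1 and 2, and in dam 3 the 2 horns were close, at ratios of 0.971 for Stat2 and 1.01 for Irf9. The fitted log2 difference was -0.55 (SE 0.21) for Stat2 and -0.30 (SE 0.21) for Irf9.

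Irf1 (chr10:39109530-39116532, plus strand) encodes a factor induced chiefly by interferon gamma and inflammatory cytokines. It had 53.2, 51.7 and 63.3 CPM in high glucose libraries against 74.1, 54.2 and 62.1 CPM in control libraries. Apart from a high control value in dam 1 the libraries lay close together, and the fitted log2 difference of -0.17 was smaller than its SE of 0.19.

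**Figure D1:**
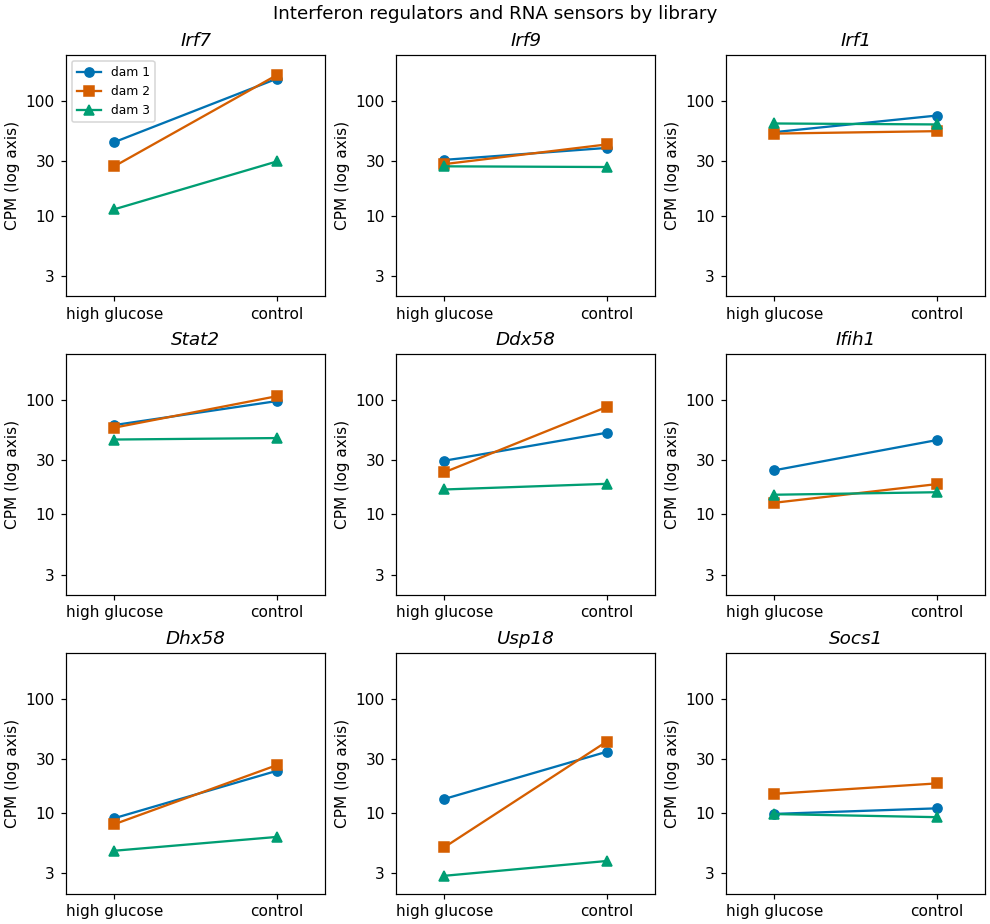
CPM (log axis) of the 9 genes in each library, high glucose left and control right, with a line joining the 2 libraries of a dam. Irf7, Usp18 and Dhx58 slope upward to control most steeply in dam 1, these 3 and Ddx58 in dam 2, and the lines of dam 3 (green triangles) are the flattest for all 9 genes.

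Ddx58 (chr5:56486584-56536898, minus strand) encodes RIG-I, the sensor of short double-stranded RNA with a free triphosphate end. It measured 29.4, 23.3 and 16.5 CPM in high glucose libraries of dams 1 to 3, against 51.4, 86.2 and 18.5 CPM in control libraries. The control library of dam 2 stood highest, and in dam 3 the high glucose library was at 0.893 of its control. Dhx58 (chr10:88599728-88610895, minus strand) encodes LGP2, a relative of RIG-I without signalling domains that modulates the other 2 sensors. It had 9.09, 8.06 and 4.73 CPM in high glucose libraries against 23.5, 26.3 and 6.24 CPM in control libraries, so it was lower in high glucose in each dam and lowest overall in dam 3. The fitted log2 difference was -0.95 (SE 0.32) for Ddx58 and -1.17 (SE 0.30) for Dhx58.

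Ifih1 (chr3:48557696-48604097, minus strand) encodes MDA5, the sensor of long double-stranded RNA. Its levels were 24.2, 12.6 and 14.9 CPM in high glucose libraries and 44.4, 18.4 and 15.6 CPM in control libraries. Unlike the other sensors it stood high in dam 1 alone, in both horns. The fitted log2 difference was -0.50 (SE 0.23).

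Usp18 (chr4:153806080-153834374, plus strand) encodes the protease that removes ISG15 from proteins and blocks the type I interferon receptor. It had 13.4, 5.08 and 2.86 CPM in high glucose libraries of dams 1 to 3 and 34.4, 42.2 and 3.85 CPM in control libraries. Its values ranged most widely, 4.66-fold between the high glucose libraries and 10.9-fold between the control libraries, and the fitted log2 difference of -1.62 had the largest SE (0.52). Without dam 2 that difference was -0.92. Socs1 (chr10:4956793-4958471, plus strand) encodes an inhibitor of the JAK kinases. It had 9.90, 14.8 and 9.87 CPM in high glucose libraries against 11.1, 18.2 and 9.28 CPM in control libraries, with dam 2 highest in both horns, and a fitted log2 difference of -0.12 (SE 0.24). The 2 inhibitors thus gave fitted log2 differences far apart, though both had their largest within-dam log2 difference in dam 2, at -3.04 for Usp18 and -0.30 for Socs1.

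None of the 9 genes passed the treatment test over all 12276 genes (edgeR quasi-likelihood test with dam as a block), whose background was 0.0163% of genes called in either direction. Adjusted p-values ran from 0.0699 for Irf7 to 1, with 0.412 for Dhx58 and 0.836 to 0.874 for Ddx58, Usp18 and Stat2. At an unadjusted p below 0.05 there were 5 of 9 genes, all lower, against 4.82% of all genes in either direction and 3.15% lower, and DESeq2 called 2 (Irf7 and Usp18, both lower) against 0.863% of all genes. Irf7 passed in edgeR without dam 1 (log2 difference -2.02, adjusted p = 0.00493, background 0.148%) and without dam 3 (-2.23, adjusted p = 3.42e-06), and Ddx58 (-1.34, adjusted p = 0.0304) and Dhx58 (-1.53, adjusted p = 0.00871) passed without dam 3 (background 0.447%). Since the set was chosen on this contrast, these counts and p-values describe the libraries only.

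The difference had a different size in each dam. All 9 genes were lower in high glucose in dam 1 and in dam 2, with median log2 differences of -0.81 and -0.91, and 6 of 9 were lower in dam 3, where the median was -0.07. The medians over all genes tested were 0.0013, 0.020 and -0.016 in the same dams. The 6 genes lower in all 3 dams were Irf7, Stat2, Ddx58, Ifih1, Dhx58 and Usp18 (background 11.3% of genes). In dam 3, Irf9, Irf1 and Socs1 were slightly higher in high glucose, by log2 differences of 0.02, 0.03 and 0.09. No gene had all its high glucose libraries below all its control libraries (background 2.1%), and the median fitted log2 difference of the 9 was -0.55, against 0.0041 over all genes.

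**Figure D2:**
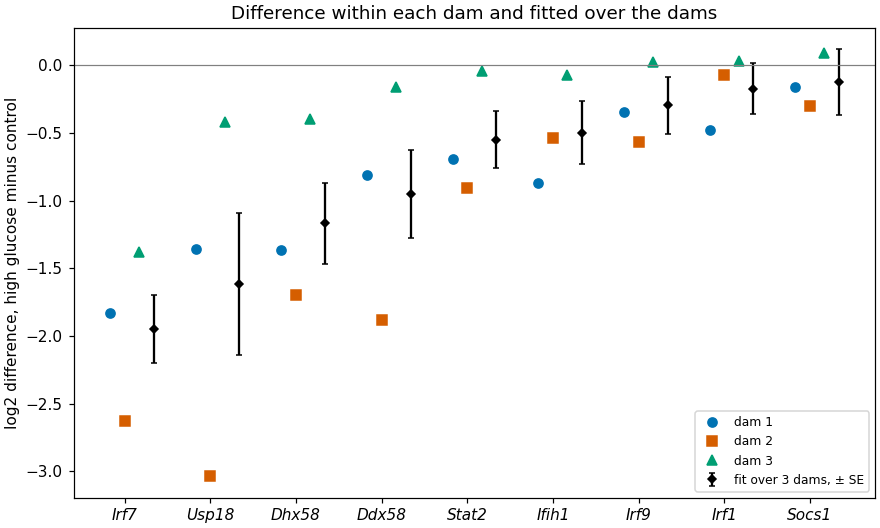
Log2 difference (high glucose minus control, prior count 2) of each gene within dams 1, 2 and 3, and the edgeR estimate over the dams with its SE (black). The points of dam 3 lie nearest to 0 for all 9 genes, from -1.38 for Irf7 to 0.09 for Socs1.

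For these 9 genes the high glucose libraries differed less among themselves than the control libraries did. The highest library over the lowest was 3.84 in high glucose and 5.64 in control for Irf7. It was 1.78 in high glucose and 4.66 in control for Ddx58, and 1.92 in high glucose and 4.21 in control for Dhx58. The control ratio was the wider for all 9 genes, and for 51.9% of all genes tested. These ratios come from the same libraries as the difference the set was chosen on. In addition, 6 of the 9 genes varied together (r of 0.95 to 0.99). The ratios are therefore a description and support nothing by themselves. The lowest control library was that of dam 3 for 8 of the 9 genes, all but Irf1, and the highest was that of dam 2 for 7. Among high glucose libraries, dam 1 was highest for 7 of the 9.

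How far the dams differed, with treatment in the model, was not used to choose the genes. In the edgeR test between dams, 3 of 9 genes passed (33.3%, against a background of 22.8% of all genes): Irf7 (adjusted p = 0.00551), Ifih1 (adjusted p = 0.0205) and Dhx58 (adjusted p = 0.0332). These calls changed with the dams in the fit, and so did the share over all genes. For the rest, the edgeR adjusted p was 0.0705 for Usp18, 0.0748 for Ddx58, 0.082 for Stat2 and 0.124 to 0.598 for Socs1, Irf9 and Irf1. Without dam 3, Ifih1 alone of the 9 passed (edgeR adjusted p = 0.00317, background 31.5%), and the adjusted p of Irf7 between dams 1 and 2 was 0.368. Without dam 1, Irf7, Stat2, Ddx58 and Dhx58 passed, which is 4 of 9 against a background of 17.9%. Without dam 2, Irf7 and Usp18 passed, which is 2 of 9 against a background of 1.74%. DESeq2 on all 3 dams called 6 of 9 (background 33.4%). No difference between the share of the 9 genes and the background was tested. The fits share libraries, and 6 of the 9 genes varied together (r of 0.95 to 0.99), so these shares are not separate results.

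Compared between genes as length-scaled abundances (TPM), which divides counts by exonic length, the order of levels differed between the groups. In high glucose islets Irf1 led with 45.9 ± 12.4 TPM, followed by Irf9 (29.5 ± 5.86), Stat2 (25.8 ± 4.95), Irf7 (22.9 ± 15.1) and Socs1 (15.9 ± 0.693), and the sensors and Usp18 lay between 5.01 and 8.42 TPM (SD, n = 3). In control islets Irf7 led with 93.5 ± 64.3 TPM, ahead of Irf1 (49.4 ± 17.2), Stat2 (37.8 ± 16.4), Irf9 (34.6 ± 10.3) and Usp18 (25.8 ± 19.5). Ddx58, Socs1, Dhx58 and Ifih1 lay between 11.1 and 17.4 TPM. Irf7 did not lead in the control library of dam 3, where it had 22.7 TPM against 45.9 for Irf1 and 24.9 for Irf9. The change of order comes from the same libraries as the difference the set was chosen on, so it is a description only. In high glucose only the steps from Irf1 to Irf9 and from Socs1 to Ddx58 exceeded the larger SD of the 2 neighbours, and in control no step did.

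Across the 6 libraries, Irf7, Usp18, Dhx58, Ddx58, Stat2 and Irf9 followed one pattern, with Pearson's r of log2 CPM between 0.95 and 0.99 for all pairs of these 6 genes. This grouping was chosen after the values were seen. Irf1 stood outside it (r = 0.17 with Irf7), Socs1 (0.51) and Ifih1 (0.67) lay between, and Irf1 and Socs1 ran against each other (r = -0.47). The 6 points share dams and treatment, so these values are descriptive.

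**Figure D3:**
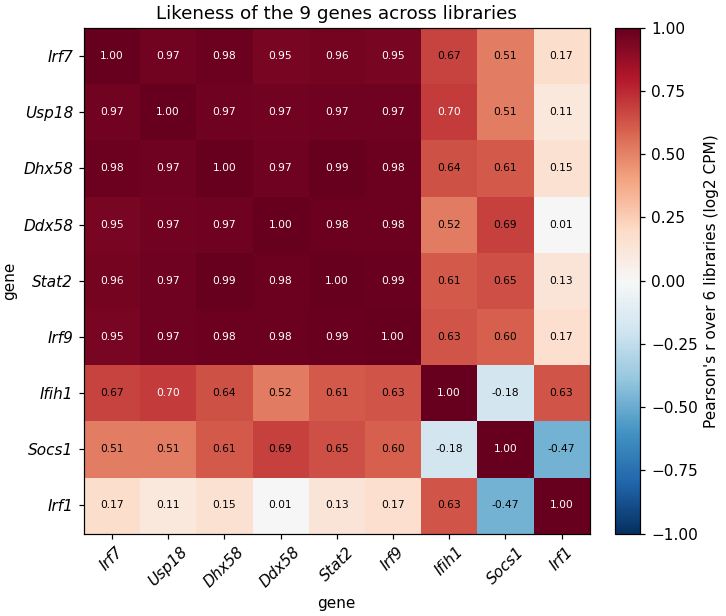
Pearson's r of log2 CPM between each 2 of the 9 genes over the 6 libraries, from -1 (blue) to 1 (red). The first 6 genes form a block of values from 0.95 to 0.99, while the row of Irf1 holds 0.01 to 0.17 with those 6.

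Among 11005 other genes with a mean count of at least 50, those most like Irf7 over the 6 libraries were RT1-S3 (r = 0.999), Gbp5 (0.994), Rhoh (0.984), Oas1a (0.982) and Tox2 (0.976). RT1-S3, a class I histocompatibility gene with near-identical copies whose counts are uncertain, had 44.7, 29.4 and 16.6 CPM in high glucose libraries of dams 1 to 3 and 102, 102 and 32.0 CPM in control libraries. Gbp5, an interferon-induced GTPase, had 14.0, 8.69 and 4.08 CPM in high glucose libraries and 41.5, 50.2 and 7.61 CPM in control libraries. Rhoh is a small GTPase of blood cells and had 1.59 to 2.61 CPM in high glucose and 2.42 to 4.78 CPM in control libraries. Oas1a, an activator of antiviral RNA decay, had 1.37 to 7.99 CPM in high glucose and 3.10 to 27.6 CPM in control libraries, and Tox2, a nuclear HMG-box factor, 0.903 to 2.25 CPM in high glucose and 1.88 to 8.20 CPM in control libraries. None of the 5 passed the treatment test in edgeR (adjusted p from 0.143 to 1). DESeq2 called Oas1a (adjusted p = 0.000148, background 0.863% of genes), and its results for the others are not given here.

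The pathway's other genes were taken from lists by role, chosen with earlier results of these data known. Over all 12276 genes tested, 0.0163% passed in edgeR, 4.82% had an edgeR unadjusted p below 0.05 and 0.863% were called by DESeq2. Of 12 interferon ligand genes 6 were among the counted genes. Ifna1, Ifna2, Ifna4 and Ifnk had 0 counts in every library, where 3 counts, the limit a count of 0 allows, correspond to 0.0968 to 0.166 CPM. Ifnb1 had 0 counts in high glucose and 1 in control, and Ifng had 1 in each, summed over 3 libraries. None of these 6 genes was therefore detectable above that limit in either group at this depth, and none was tested. Pairs that map to several places were dropped in counting, so reads from ligand genes alike in sequence could be missed. The listed ligands that were not counted could not be assessed.

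Of 9 receptor and kinase genes 8 were counted and tested, and the receptor gene Ifnar2 was not among the counted genes. Of the 8 tested, 0 passed in edgeR, with 0 at an unadjusted p below 0.05 and 0 in DESeq2. Their median log2 difference was -0.03. Jak1, the kinase shared by all interferon receptors, had 252 to 391 CPM in high glucose and 264 to 444 CPM in control libraries (log2 difference -0.02, SE 0.19). Ifngr1, the ligand-binding chain of the interferon gamma receptor, had a log2 difference of -0.33 (SE 0.19), and the interferon lambda receptor gene Ifnlr1 one of 0.28 (SE 0.29). Ifnlr1 was low, at 6.49 to 12.7 CPM in high glucose and 6.93 to 9.50 CPM in control libraries.

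Of the other STAT and IRF genes 0 of 12 passed in edgeR (1 at an unadjusted p below 0.05, 0 in DESeq2), and the median was -0.05. Stat3, the factor of interleukin 6 signalling, had a log2 difference of 0.29 (SE 0.20), and Stat6, that of interleukin 4, one of -0.05 (SE 0.18). The largest differences in this list were those of Irf4 (-0.67, SE 0.69) and Irf8 (-0.54, SE 0.25), factors of lymphoid and myeloid cells that were highest in the control library of dam 1, at 2.46 and 22.2 CPM.

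Partners of the sensors and other nucleic acid sensors gave 0 of 16 passing genes in edgeR (2 at an unadjusted p below 0.05, 0 in DESeq2) and a median of -0.10. Eif2ak2, the RNA-activated kinase PKR, had 54.4 to 78.2 CPM in high glucose and 47.1 to 118 CPM in control libraries (log2 difference -0.16, SE 0.20), and the adaptor gene Myd88 had a log2 difference of -0.16 (SE 0.17). Zbp1, a sensor of left-handed nucleic acids, stood apart with a log2 difference of -2.91 (SE 0.88, edgeR adjusted p = 0.667) on 27 counts in high glucose and 165 in control. Tmem173, which encodes the DNA-sensing adaptor STING, had a log2 difference of -0.71 (SE 0.38). Mavs, the adaptor directly downstream of RIG-I and MDA5, had 21.9 to 32.4 CPM in high glucose and 26.0 to 29.3 CPM in control libraries, a gene named here for its role. The fitted log2 difference was -0.08 for Mavs, against -0.95 for Ddx58 and -0.50 for Ifih1.

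Other inhibitors of cytokine signalling gave 0 of 13 passing genes in edgeR (1 at an unadjusted p below 0.05, 0 in DESeq2), with a median of 0.09. The phosphatase gene Ptpn11 and Socs5 were the most abundant (log2 differences 0.14 and 0.02, SE 0.18 each), and the leukocyte phosphatase Ptpn6 (-0.50, SE 0.20) and Socs3 (0.31, SE 0.22) had the largest differences. In the ISG15 system, the ubiquitin-like tag that USP18 removes, 0 of 3 passed in edgeR (2 at an unadjusted p below 0.05). Isg15 had 20.1, 17.1 and 4.27 CPM in high glucose libraries against 69.7, 155 and 6.65 CPM in control libraries, a log2 difference of -1.90 (SE 0.55, edgeR adjusted p = 0.865) that DESeq2 called. Its activating enzyme Uba7 had a log2 difference of -1.14 (SE 0.37) and its conjugating enzyme Ube2l6 one of -0.18 (SE 0.20).

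Enzymes that edit or clear nucleic acids gave 0 of 5 passing genes in edgeR (1 at an unadjusted p below 0.05, 0 in DESeq2) and a median of -0.23. The nuclease gene Trex1 (-0.47, SE 0.21) and Samhd1 (-0.51, SE 0.28), which lowers nucleotide pools, had the largest log2 differences, and the RNase H2 genes Rnaseh2a (-0.23, SE 0.23) and Rnaseh2b (0.11, SE 0.19) were the most abundant. The antiviral effectors that these regulators switch on gave 0 of 15 in edgeR and a median log2 difference of -1.49. Of the 15, 12 had an edgeR unadjusted p below 0.05 (background 4.82%) and 11 were called by DESeq2 (background 0.863%). The largest differences of that list were those of Ifit1 (-5.63, SE 1.15), with 72 counts in high glucose and 2752 in control, and Mx1 (-2.39, SE 0.34), while Ifi27l2b (-1.48, SE 0.19) and Bst2 (-1.01, SE 0.22) were the most abundant.

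**Figure D4:**
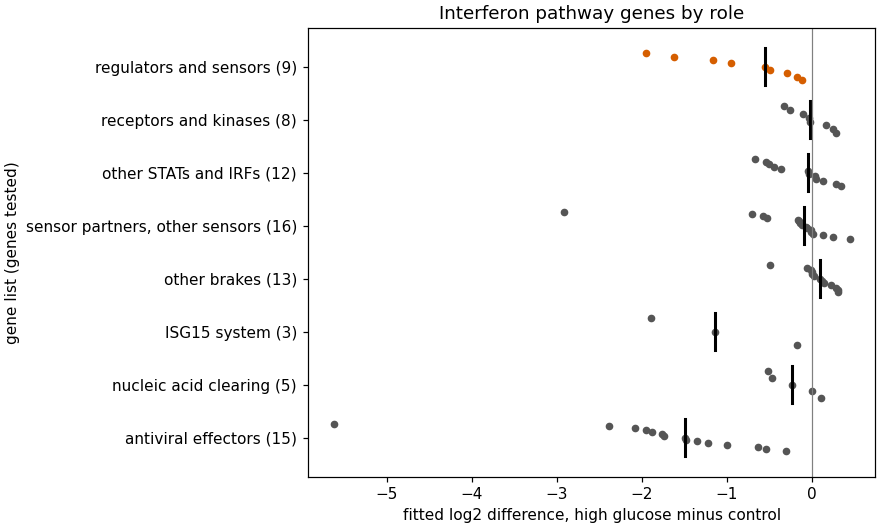
Fitted log2 difference (high glucose minus control) of each tested gene, by role, with the number tested in brackets and the median of each list as a black bar. The regulators and sensors (orange, median -0.55) lie between the receptor, STAT and inhibitor lists around 0 and the antiviral effectors at -1.49.

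Blood cell markers were also lower in high glucose libraries, and in bulk samples fewer cells of a type and less RNA per cell cannot be told apart. The 5 leukocyte markers (Ptprc, Cd52, Cd53, Coro1a and Laptm5) summed to 166, 122 and 65.2 CPM in high glucose libraries of dams 1 to 3, against 292, 181 and 192 CPM in control libraries. All 5 were lower in each dam (background 11.3% of genes), and none was at 0 in a library. In edgeR 0 of 5 passed, with 4 at an unadjusted p below 0.05 (background 4.82%), and DESeq2 called 2 (background 0.863%). The 8 macrophage markers summed to 683, 619 and 357 CPM in high glucose and 948, 749 and 833 CPM in control libraries, and 6 of 8 were lower in each dam. Of these 8, 0 passed in edgeR, 6 had an unadjusted p below 0.05 and DESeq2 called 0, against the same backgrounds. Ratios of the summed leukocyte level in high glucose to that in control were 0.569, 0.671 and 0.340 in dams 1 to 3, smallest in dam 3, where the regulators and sensors differed least. The part of these cells in the differences was not tested.

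Lymphocyte markers were near 0 in 5 libraries, with summed levels of 0.747 to 1.66 CPM in high glucose and 1.26 and 2.54 CPM in the control libraries of dams 3 and 2, and stood at 19.6 CPM in the control library of dam 1. There Cd79b had 289 counts and Ms4a1 had 95. Granulocyte markers summed to 2.17, 5.42 and 1.37 CPM in high glucose libraries of dams 1 to 3 and 171, 4.82 and 32.5 CPM in control libraries, so dam 1's control stood highest there too. The neutrophil granule gene Np4 (2, 0 and 0 counts in high glucose, 23 to 1206 in control) and the red cell carbonic anhydrase gene Car1 (4, 0 and 1 counts in high glucose, 655, 7 and 212 in control) were the 2 genes of all 12276 that passed the treatment test. Mpo and Elane, made by immature granulocytes, had 387 and 93 counts in the control library of dam 1. Both had at most 1 count in the control libraries of dams 2 and 3. Summed over the high glucose libraries, Mpo had 7 counts and Elane had 1. The median fitted log2 difference of the 9 regulators and sensors was -0.48 without dam 1, from dams whose own medians were -0.91 (dam 2) and -0.07 (dam 3). Of 5 listed markers of plasmacytoid dendritic cells, the blood cells that make most type I interferon, 4 were counted, with sums of 3.52 to 14.5 CPM in high glucose and 6.25 to 20.2 CPM in control libraries. Most of that sum was Tlr7, also in the sensor list (2.44 to 12.5 CPM in high glucose and 4.39 to 15.7 CPM in control libraries), while Ccr9 and Tlr9 had 0 to 5 counts in high glucose and 0 to 35 in control libraries and were not tested. Red cell markers summed to 148, 632 and 86.7 CPM in high glucose and 1568, 1551 and 398 CPM in control libraries. All 6 were lower in each dam (background 11.3% of genes). Of these 6, 1 passed in edgeR (Car1), 4 had an unadjusted p below 0.05 (background 4.82%) and DESeq2 called 5 (background 0.863%). Endothelial markers summed to 252 to 615 CPM in high glucose and 607 to 746 CPM in control libraries. The endocrine sum was 23118, 14198 and 6206 CPM in high glucose libraries of dams 1 to 3 and 14769.6, 15945 and 27504 CPM in control libraries, with high glucose to control ratios of 1.57, 0.890 and 0.226. Acinar markers summed to 118.7, 1215 and 606 CPM in high glucose and 161, 822 and 26.5 CPM in control libraries, and duct markers to 2557, 1947 and 5244 CPM in high glucose and 1216, 1352 and 3529 CPM in control libraries. The part of these lists in the differences was not tested either.

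**Figure D5:**
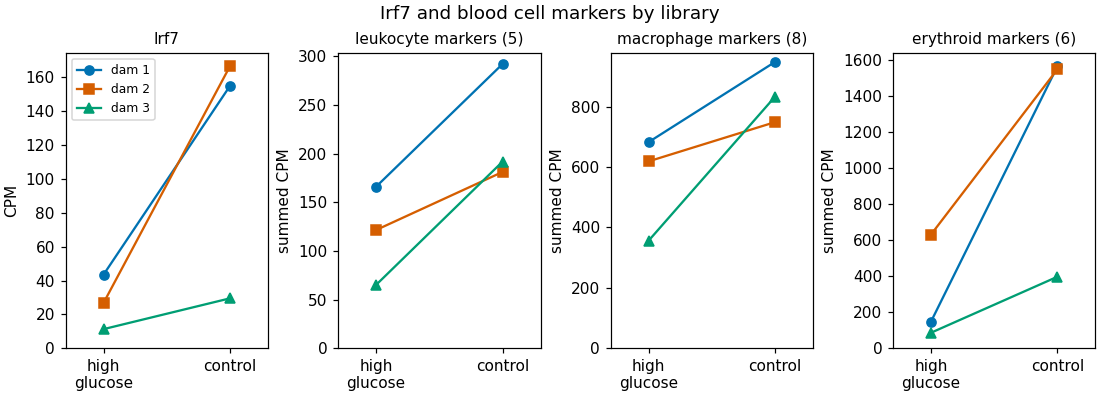
CPM of Irf7 and summed CPM of leukocyte (5), macrophage (8) and erythroid (6) markers by library, high glucose left and control right, lines joining the libraries of a dam, linear axes from 0. In dam 3 (green) the leukocyte sum is 65.2 CPM in high glucose and 192 CPM in control, while Irf7 is 11.3 CPM in high glucose and 29.5 CPM in control.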

How the data were processed

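The authors deposited a raw count per gene, in read pairs, from featureCounts 1.5.1 on rn6 and the UCSC refGene annotation, on the reverse strand (setting 2) at a mapping quality of at least 10, per the file headers. STAR 2.5 is named in the submitters' processing notes, which list mm10 beside rn6. Counting used strand, which keeps antisense genes apart, and the quality minimum drops pairs that map to several places.

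Groups came from the treatment labels and pairs from the title stems that 2 libraries share. The pairing is by dam, per the series design, and libraries of one dam deviated together (r across genes of 0.474, 0.621 and 0.413, against -0.454 to -0.004 for different dams). Testing used edgeR 4.0.16 (R 4.3.3): TMM factors, filterByExpr, and the quasi-likelihood test with robust dispersion and a term for each dam. P-values were adjusted by Benjamini-Hochberg over 12276 genes at a threshold of 0.05, and DESeq2 1.42.0 was an alternative. The SE is the log2 difference divided by the square root of F. CPM use TMM-scaled library sizes, per-dam log2 differences a prior count of 2, and TPM the deposited exonic lengths. The fit was checked on simulated counts in which a changed gene had the same change in every dam. That check does not cover changes that vary among dams, as they did here. The genes and lists were chosen with earlier results of these data known. Named were the 9 genes, in each pathway list any passing gene (there was none), the 2 with the highest mean CPM and the 2 with the largest log2 difference, and the 5 genes most correlated with Irf7. Mavs and the passing marker genes were named outside that rule, and 1 gene of the pathway lists is not reported here. Sequences are from RefSeq's GRCr8 promoter table, a build other than that of the counts.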

Additional observations from a re-analysis of the deposited data

How the results depend on the processing

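Total-count scaling was chosen after seeing the data; it and RLE size factors left the treatment test at 2 genes and 0 of the 9. The treatment test called 2 genes, against 0 with no replicate block (dam left out of the model), 106 with DESeq2, 18 with no filter on low counts, 5 at a mean count of at least 50, and 18 to 55 when 1 dam was left out (18 without dam 1, 18 without dam 2, 55 without dam 3). Of the 9 genes it called 0, against 0 with no replicate block, 2 with DESeq2 (Irf7 and Usp18), 1 with no filter (Irf7) and 0 to 3 when 1 dam was left out. Between dams, 2795 genes and 3 of the 9 passed, against 6 of the 9 with DESeq2; leaving out 1 dam gave 216 (without dam 2) to 3878 genes and 1 to 4 of the 9. For the set of 9 the median was -0.55 on the log2 scale, and -0.80 to -0.48 when 1 dam was left out. All 9 fitted differences were below 0 in each of these fits. The cause of these changes was not tested. Each group has 3 libraries, and a fit without 1 dam rests on 2 pairs.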
